A study of Homo sapiens with 6 samples.

Results

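The spindle midzone and cytokinesis genes are 10 genes whose proteins build the mitotic spindle, hold its midzone together in anaphase and guide the cut between daughter cells. They are INCENP, CDCA8 and BIRC5 of the chromosomal passenger complex, the microtubule bundler PRC1, the furrow proteins ECT2 and ANLN, the spindle assembly factors TPX2, DLGAP5 and NUSAP1, and the spindle pole protein ASPM. They were chosen by name, with earlier results of these data known. All 10 were found among the 63086 genes of the deposited count table by matching identifiers to GENCODE release 44. All 10 passed the low-count filter that left 16046 genes for testing.

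When chromosomes part, antiparallel microtubules overlap between them and form the midzone. The passenger complex moves there from the centromeres with its kinase Aurora B, PRC1 crosslinks the overlaps, and the centralspindlin complex recruits the exchange factor ECT2, which switches on RhoA at the cell equator. RhoA then assembles an actomyosin ring, scaffolded by anillin, and the remaining bridge is cut by the ESCRT-III machinery. Most of these genes are transcribed mainly in G2 and M phase, under repression by the DREAM complex and activation by B-MYB and FOXM1, both of which act through a promoter hexamer known as the cell cycle genes homology region (CHR), often with neighbouring CCAAT boxes bound by NF-Y.

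The RNA came from the established human melanoma cell line A375, sequenced in 2 groups of 3 libraries: DUS1L knockout cells, made by CRISPR/Cas9 editing followed by clonal selection, and wild-type cells kept alongside without targeting. DUS1L is a dihydrouridine synthase that modifies tRNAs. The submitters call the libraries biological replicates, the number of clones was not given in the sources used here, and a difference between genotypes cannot be told apart from a difference between a clone and its parental population. The spread behind each p-value is therefore that among these 6 libraries.

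DUS1L itself stood at 55.4, 54.7 and 53.1 CPM in knockout libraries and at 80.0, 75.7 and 77.0 CPM in wild-type libraries. CPM are counts scaled to the size of the library after TMM adjustment. The DUS1L transcript was thus lower but present in all 3 knockout libraries. Libraries held 17121315 to 18861514 estimated counts. The first principal component (53% of the variance) separated the genotypes, and wild-type replicate 1 stood apart from the other wild-type libraries on the second (13.7%). The 10 melanocyte lineage markers summed to 565 to 633 CPM in knockout and 747 to 778 CPM in wild-type libraries. Among them SOX10 was at 454 to 519 CPM in knockout and 585 to 618 CPM in wild-type libraries, whereas PMEL, MLANA, TYR and DCT had at most 9 counts in every library. Summed markers of other cell types came to 50.9 to 60.3 CPM in knockout and 53.4 to 59.0 CPM in wild-type libraries for keratinocytes (8 genes, 5 with at most 9 counts in every library, among them KRT5 and TP63), and to 87.3 to 187 against 44.5 to 110.0 CPM for fibroblasts (8 genes, THY1 with at most 9 counts). KRT10 made up most of the keratinocyte sums. COL1A1 varied between replicates, at 29.2, 101 and 28.5 CPM in knockout and 4.70, 15.9 and 37.7 CPM in wild-type libraries. PDGFRB was lower in knockout, at 5.21 to 7.22 against 10.6 to 13.1 CPM, and LUM and DCN overlapped between genotypes. For leukocytes the sums were 8.03 to 13.8 CPM in knockout and 3.70 to 5.06 CPM in wild-type libraries (8 genes, 4 with at most 9 counts, among them PTPRC), and for endothelium 3.77 to 5.84 and 5.85 to 7.50 CPM (8 genes, 4 with at most 9 counts). Of the leukocyte markers, ITGAM was at 4.97 to 10.8 CPM in knockout and 2.41 to 2.79 CPM in wild-type libraries, and LYZ overlapped between genotypes. The part of these markers in the results was not tested.

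All 10 genes were lower in DUS1L knockout cells, with levels from 49.4% of wild-type (DLGAP5) to 67.8% (TPX2). In every gene each knockout library lay below each wild-type library. The call (edgeR quasi-likelihood test, adjusted p under 0.05 over all genes) was made for 10 of 10 genes, against 20.7% of all tested genes called lower, 20.5% called higher and 41.2% called in either direction, and the groups failed to overlap in that direction in 10 of 10, against 25.8% of all tested genes. The median log2 fold change of the 10 was -0.66, while that of all tested genes lay at 0.00. Since the genes were chosen with earlier results known, these contrasts describe the 10 and test nothing. For 3 of the 10, DLGAP5, PRC1 and ASPM, the fall was larger than 1.5-fold (glmTreat, adjusted p under 0.05), a test that 1.27% of all tested genes passed in this direction. In bulk RNA, fewer cells in G2 and M phase and less RNA per dividing cell cannot be told apart.

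**Figure D1:**
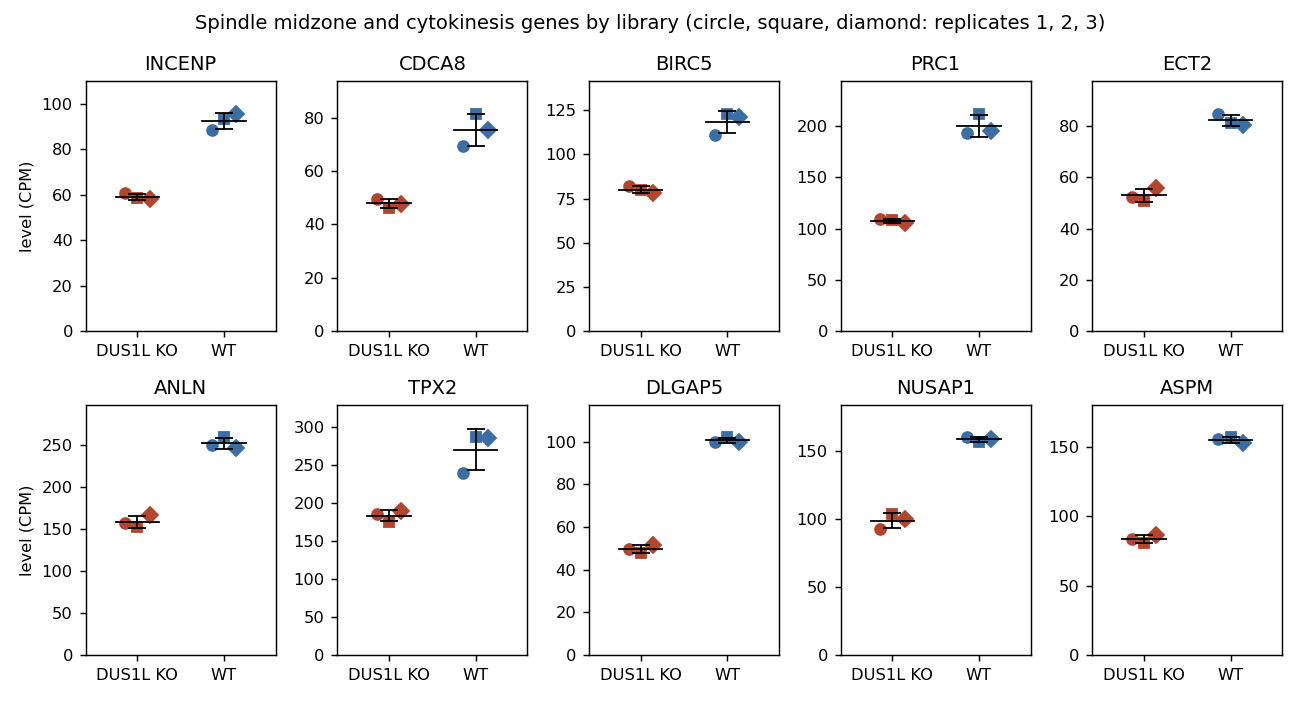
Level in CPM (vertical axes from 0) of each of the 10 genes in the 3 DUS1L knockout and 3 wild-type libraries, with points for libraries and lines for the mean and SD. The genotypes do not overlap in any panel, and wild-type replicate 1 (circle) is the lowest wild-type point for TPX2, BIRC5, CDCA8, INCENP, PRC1 and DLGAP5.

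The 8 promoters that could be searched held the CHR hexamer described above, and all but that of ANLN held CCAAT. The genes were chosen by name and not by sequence, but a choice of such genes favours these motifs. RefSeq promoter windows (GRCh38.p14, from 250 bases before the annotated start to 50 after it) were at hand for 8 of the 10 genes. BIRC5 and TPX2 had no entry. For a gene with several windows the first listed was used, whereas the set of all windows held 7811 beyond the first of a gene. The CHR hexamer TTTGAA, searched on both strands, was present in 8 of 8 windows, against 15.2% of all 35116 windows and 9.76% of the 11574 tested genes with a window. The pentamer CCAAT, also on both strands, was present in 7 of 8, all but ANLN, against 34.6% of all windows and 36.7% of the tested genes. Both together were present in 7 of 8 windows, against 5.9% of all windows and 4.04% of the tested genes. The related form TTCGAA was found in none of the 8 and in 1.45% of all windows. These matches describe the letters only and show no binding. Below are 30 bases around the TTTGAA match nearest to each start, on the strand of the gene, with the match in capitals (TTCAAA is the same hexamer read from the other strand).
DLGAP5 (chr14:55191565-55191594, minus strand): cggtgcggcaagTTTGAAtttcgtggaggc
PRC1 (chr15:90994538-90994567, minus strand): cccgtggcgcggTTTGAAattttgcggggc
ASPM (chr1:197146765-197146794, minus strand): cggatgcaatcaTTCAAAtgaagcgccgcc
INCENP (chr11:62123989-62124018, plus strand): tgagccttcagtTTTGAAaatcatagtttt
CDCA8 (chr1:37692481-37692510, plus strand): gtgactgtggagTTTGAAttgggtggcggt
ANLN (chr7:36389830-36389859, plus strand): ctgaaaTTCAAATTTGAAcggctgcagagg
ECT2 (chr3:172750746-172750775, plus strand): agagcagcttagttTTTGAAtcggttgtgg
NUSAP1 (chr15:41332882-41332911, plus strand): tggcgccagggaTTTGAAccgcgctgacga
In ANLN, 2 matches on opposite strands abut. In CDCA8, the hexamer and a CCAAT box on the other strand share 1 base, the single overlap of matches in the 8 windows.

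Longer stretches upstream of the start are shown for the genes in which at least 1 CHR hexamer lies well before it, with both motifs in capitals (ATTGG is CCAAT on the other strand).
DLGAP5 (chr14:55191609-55191735, minus strand): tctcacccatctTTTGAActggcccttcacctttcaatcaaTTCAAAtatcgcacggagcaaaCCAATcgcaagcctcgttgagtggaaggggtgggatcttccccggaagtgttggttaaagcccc
ASPM (chr1:197146695-197146819, minus strand): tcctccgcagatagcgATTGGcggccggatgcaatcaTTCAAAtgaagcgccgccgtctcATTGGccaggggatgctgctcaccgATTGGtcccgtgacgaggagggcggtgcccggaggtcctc
ECT2 (chr3:172750576-172750681, plus strand): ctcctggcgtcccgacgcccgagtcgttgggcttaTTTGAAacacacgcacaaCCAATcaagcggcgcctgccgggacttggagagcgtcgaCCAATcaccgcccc
In DLGAP5 the 2 upstream hexamers begin at -138 and -109 from the start and the nearest CCAAT box at -87. In ASPM the hexamer begins at -113, between boxes at -134 and -90. In ECT2 it begins at -115, with boxes at -97 and -58.

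**Figure D2:**
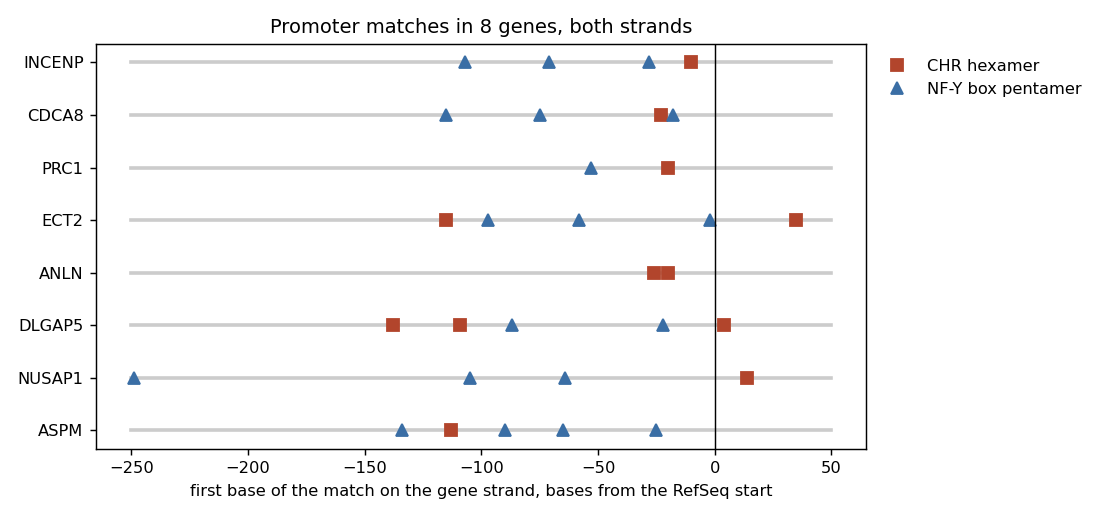
Matches to the CHR hexamer (squares) and the NF-Y box (triangles) on either strand in the promoter windows of 8 genes, by the distance in bases of the match's first base from the RefSeq start (horizontal axis, start at the vertical line). A CHR match is in every row, and ANLN is the row without an NF-Y box.

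The chromosomal passenger complex fell in all its subunits. INCENP, the scaffold that binds and activates Aurora B (ENSG00000149503.13, chromosome 11 from 62123998 to 62153169, GRCh38), was at 60.6, 58.4 and 58.2 CPM in knockout libraries and at 88.7, 93.3 and 95.7 CPM in wild-type libraries. Its log2 fold change was -0.65 (SE 0.06, adjusted p = 5.71e-08, edgeR). CDCA8, or borealin, which targets the complex to chromatin (ENSG00000134690.11, chromosome 1 from 37692481 to 37709719), was at 49.7, 46.3 and 47.7 CPM in knockout and at 69.3, 81.5 and 75.4 CPM in wild-type libraries. The knockout libraries lay close together and wild-type replicate 1 was the nearest to them (log2 fold change -0.65, SE 0.07, adjusted p = 3.46e-07, edgeR). BIRC5, or survivin, the subunit that reads the mitotic mark on histone H3, was at 82.2, 79.8 and 78.2 CPM in knockout and at 111, 123 and 121 CPM in wild-type libraries (log2 fold change -0.56, SE 0.06, adjusted p = 2.76e-07, edgeR). BIRC5 (ENSG00000089685.15) lies on chromosome 17 from 78214186 to 78225636, 3.83 Mb from DUS1L, and is the only one of the 10 on that chromosome.

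Aurora B, the enzymatic subunit, is not among the 10. AURKB was at 61.2, 54.8 and 55.7 CPM in knockout and at 81.5, 89.6 and 90.1 CPM in wild-type libraries (log2 fold change -0.61, SE 0.07). Proportions among the 4 transcripts of the complex shifted by at most 0.09 log2 units between genotypes. Within a library, the log2 ratio of INCENP to CDCA8 averaged 0.30 ± 0.03 in knockout and 0.30 ± 0.09 in wild-type libraries (SD, n = 3 each). The log2 ratio of BIRC5 to CDCA8 averaged 0.74 ± 0.04 in knockout and 0.65 ± 0.05 in wild-type libraries, the widest shift of the 6 pairs with that of INCENP to BIRC5 (-0.44 ± 0.01 against -0.35 ± 0.04). For both pairs the exact two-sided permutation test gave p = 0.1, the smallest that 3 against 3 libraries allow, so no pair could pass 0.05. Among the recruiters of the complex, SGO2 and BUB1, which mark centromeres for it, fell by 0.97 and 0.94 on the log2 scale, each by more than 1.5-fold (glmTreat adjusted p = 4.10e-04 and 0.00130). HASPIN, the histone H3 kinase that also recruits the complex, was at 17.3 ± 0.32 CPM in knockout and 17.3 ± 1.9 CPM in wild-type libraries. Of the 5 tested genes in that list, 3 were lower, none was higher and 2 were not called (median log2 fold change -0.61). The 2 were HASPIN and SGO1, the latter at a log2 fold change of -0.19 (adjusted p = 0.0601, edgeR). Of all tested genes, 20.7% were called lower.

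PRC1, the bundler of midzone microtubules (ENSG00000198901.14, chromosome 15 from 90966040 to 90995629), was at 109, 108 and 105 CPM in knockout libraries and at 193, 212 and 195 CPM in wild-type libraries. The knockout libraries were close together, at 53.9% of wild-type, with a log2 fold change of -0.89 (SE 0.06, edgeR adjusted p = 1.65e-10). Most of its listed partners at the midzone moved with it. KIF4A, the kinesin that PRC1 brings to the overlap and that limits its length, was at 42.8 ± 3.1 CPM in knockout and 80.0 ± 2.0 CPM in wild-type libraries (log2 fold change -0.90, SE 0.07). KIF23 and RACGAP1, the kinesin and the GTPase-activating protein of centralspindlin, fell by 0.79 and 0.72 (SE 0.06 each, edgeR adjusted p = 5.52e-09 and 4.27e-09). KIF20A, the kinesin that carries the passenger complex to the midzone, was at 48.4 ± 2.5 CPM in knockout and 138 ± 13.6 CPM in wild-type libraries (log2 fold change -1.51, SE 0.07). Of the 9 tested genes in the list of midzone motors, centralspindlin and Polo kinase, 8 were lower, against 20.7% of all tested genes. None was higher, 4 of the 8 fell by more than 1.5-fold (against 1.27% of all tested genes), and the median log2 fold change was -0.72. CLASP1 was not called, at 56.9 ± 2.0 CPM in knockout and 55.4 ± 1.7 CPM in wild-type libraries. CLASP2 was barely called (log2 fold change -0.21, adjusted p = 0.0497, edgeR), and its genotypes overlapped. The number lower was 7 with DESeq2 or its size factors, library size alone, a mean of at least 5 CPM, or the replicate block.

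ECT2 and ANLN, which act at the cleavage furrow, both fell. ECT2 (ENSG00000114346.14, chromosome 3 from 172750682 to 172821474) was at 52.4, 50.6 and 55.8 CPM in knockout libraries and at 84.8, 81.2 and 80.5 CPM in wild-type libraries (log2 fold change -0.63, SE 0.06, adjusted p = 1.46e-07, edgeR). ANLN, or anillin, the scaffold between actin, myosin, septins and RhoA (ENSG00000011426.11, chromosome 7 from 36389821 to 36453791), was at 157, 152 and 166 CPM in knockout and at 250.3, 259 and 246 CPM in wild-type libraries (log2 fold change -0.67, SE 0.05, adjusted p = 4.75e-09, edgeR). Neither passed the test against 1.5-fold. Of 18 genes of RhoA signalling and the contractile ring, 5 were lower, 3 were higher and 10 were not called, with a median log2 fold change of -0.08. These shares are near those of all tested genes, of which 20.7% were lower and 20.5% higher. RHOA was at 462 ± 10.0 CPM in knockout and 491 ± 14.8 CPM in wild-type libraries (adjusted p = 0.162, edgeR). ARHGAP11A, a RhoA GTPase-activating protein of mitotic cells, fell by 0.64. The myosin heavy chains of the ring went opposite ways, MYH10 at 100.5 ± 6.9 CPM in knockout and 148 ± 13.4 CPM in wild-type libraries, and MYH9 at 443 ± 12.7 and 311 ± 36.2 CPM. The septin gene SEPTIN11 and the kinase gene ROCK2 were higher by 0.26 and 0.21 on the log2 scale, and the ROCK2 call was lost without knockout replicate 2 (adjusted p = 0.0950).

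Downstream of the furrow, more abscission genes were called higher than lower. Of 18 genes of the midbody and the ESCRT-III pathway, 2 were lower, 7 were higher and 9 were not called (median log2 fold change 0.11). Over all tested genes, 20.7% were lower and 20.5% higher. None of the 18 passed the test against 1.5-fold. The number higher was 5 without a filter and after the length and GC correction, and 8 with scaling by library size alone. With 1 library left out it was 5 or 6. CEP55, the midbody protein that recruits ESCRT factors, was at 87.4 ± 4.0 CPM in knockout and 136 ± 4.7 CPM in wild-type libraries (log2 fold change -0.64, SE 0.06, adjusted p = 3.05e-08, edgeR). ZFYVE19, a regulator of the abscission checkpoint, fell by 0.28, a call lost without wild-type replicate 2 (adjusted p = 0.0566). VPS4B, the ATPase that disassembles ESCRT-III filaments, was at 68.4 ± 4.6 CPM in knockout and 46.3 ± 2.3 CPM in wild-type libraries (log2 fold change 0.56, SE 0.07), and IST1, an ESCRT-III subunit, was at 146 ± 4.6 and 122 ± 5.1 CPM.

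DLGAP5 fell the most of the 10. DLGAP5, also called HURP, a Ran-regulated protein that stabilizes the microtubules attached to kinetochores (ENSG00000126787.13, chromosome 14 from 55148112 to 55191608), was at 49.5, 48.0 and 51.4 CPM in knockout libraries and at 99.9, 102 and 100 CPM in wild-type libraries. Knockout libraries held 49.4% of the wild-type level, and both groups were tight (log2 fold change -1.02, SE 0.06, adjusted p = 1.09e-10, edgeR). NUSAP1, which bundles microtubules near chromosomes (ENSG00000137804.14, chromosome 15 from 41320794 to 41381050), was at 92.8, 104 and 99.9 CPM in knockout and at 160.3, 157 and 159 CPM in wild-type libraries (log2 fold change -0.69, SE 0.06, adjusted p = 8.96e-09, edgeR). TPX2, the activator and spindle anchor of Aurora A (ENSG00000088325.16, chromosome 20 from 31739271 to 31801805), was at 185, 175 and 189 CPM in knockout and at 239, 286 and 285 CPM in wild-type libraries. Wild-type replicate 1 lay well below the other wild-type libraries for TPX2, whose log2 fold change was -0.56 (SE 0.06, adjusted p = 1.30e-06, edgeR) and -0.64 without that library.

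AURKA, the kinase that TPX2 activates, was at 89.4 ± 2.0 CPM in knockout and 154 ± 6.7 CPM in wild-type libraries (log2 fold change -0.78, SE 0.06). Of 30 Ran-dependent and augmin spindle assembly genes, 25 were lower, 3 were higher and 2 were not called, with a median log2 fold change of -0.45. Among all tested genes, 20.7% were lower and 20.5% higher. KIF2C, a microtubule-depolymerizing kinesin, and KPNA2, the importin alpha that holds TPX2 inactive, fell by 0.84 and 0.65. The 3 higher genes were RANGAP1, which switches Ran off, and the augmin subunits HAUS2 and HAUS3, by 0.42, 0.39 and 0.35 on the log2 scale.

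ASPM, the spindle pole protein whose loss causes microcephaly in humans (ENSG00000066279.19, chromosome 1 from 197084121 to 197146694), was at 83.8, 80.5 and 86.6 CPM in knockout libraries and at 156, 157 and 153 CPM in wild-type libraries. Both groups were tight and far apart, at 53.9% of wild-type, with a log2 fold change of -0.89 (SE 0.06, edgeR adjusted p = 1.65e-10). Other pole and centrosome genes had smaller changes than ASPM. Of 17, 11 were lower, 1 was higher and 5 were not called, none by more than 1.5-fold, with a median log2 fold change of -0.30. The shares over all tested genes were 20.7% lower and 20.5% higher. CENPJ, a centriole length factor, and NDE1, a dynein regulator, fell by 0.55 and 0.52. KATNA1, the catalytic subunit of a microtubule-severing enzyme, was at 27.7 ± 1.3 CPM in knockout and 23.3 ± 2.3 CPM in wild-type libraries (adjusted p = 0.0407, edgeR), a call that was lost without any 1 library other than wild-type replicate 1 (adjusted p = 0.0611 to 0.192).

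**Figure D3:**
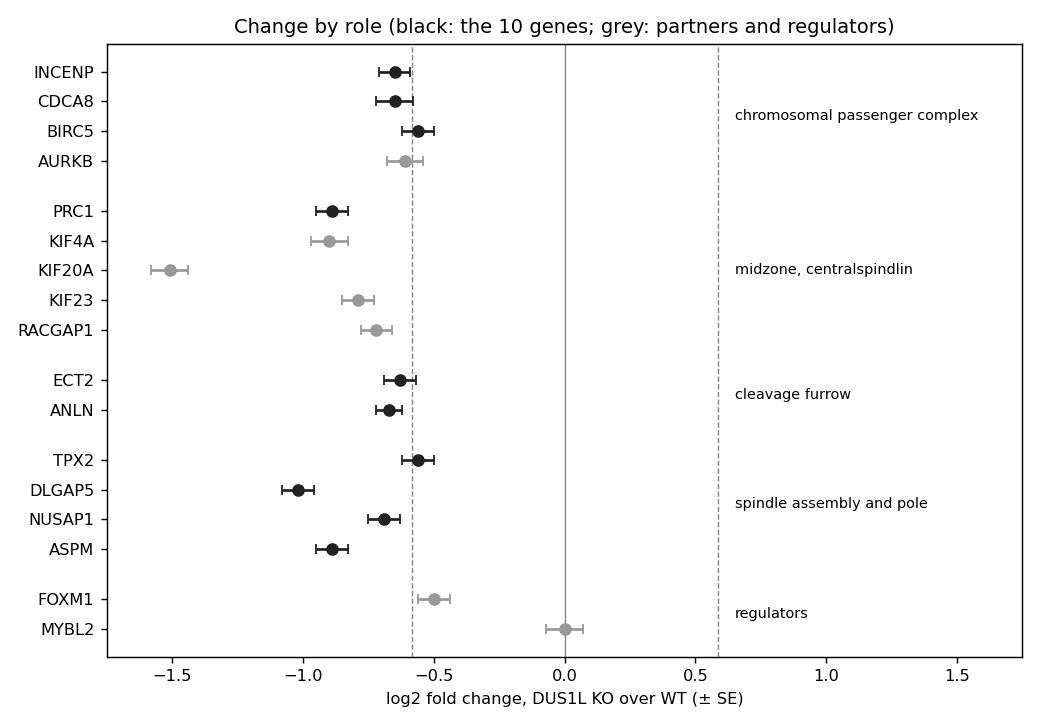
Log2 fold change of DUS1L knockout over wild-type libraries (horizontal axis, bars for the SE) for the 10 genes in black and for partners and regulators in grey, by role, with dashed lines at a 1.5-fold change. The 10 genes lie between -1.02 and -0.56, and MYBL2 lies at 0.00.

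The fall ranged from 1.47-fold in TPX2 to 2.03-fold in DLGAP5. To compare the genes with each other, each one was set against the median of the 10 in its own library, which removes any scaling between libraries. DLGAP5 stood 0.72 ± 0.04 log2 units below that median in knockout and 0.43 ± 0.03 below it in wild-type libraries (SD, n = 3 each), a shift of -0.29. PRC1 stood at 0.40 ± 0.04 above it in knockout and 0.56 ± 0.05 in wild-type libraries, a shift of -0.17. TPX2 shifted the other way, at 1.16 ± 0.03 in knockout and 0.99 ± 0.11 in wild-type libraries. ASPM and BIRC5 are the middle pair in every library, so their ratios mirror each other, at 0.03 ± 0.04 and -0.03 ± 0.04 in knockout and 0.20 ± 0.04 and -0.20 ± 0.04 in wild-type libraries. In these 5 genes and INCENP the ratios of the genotypes did not overlap, and in ANLN, CDCA8, ECT2 and NUSAP1 they did. Each of the first 6 had p = 0.1 (exact two-sided permutation test, 0.167 after Benjamini-Hochberg adjustment over 10 ratios), the smallest p this design allows.

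**Figure D4:**
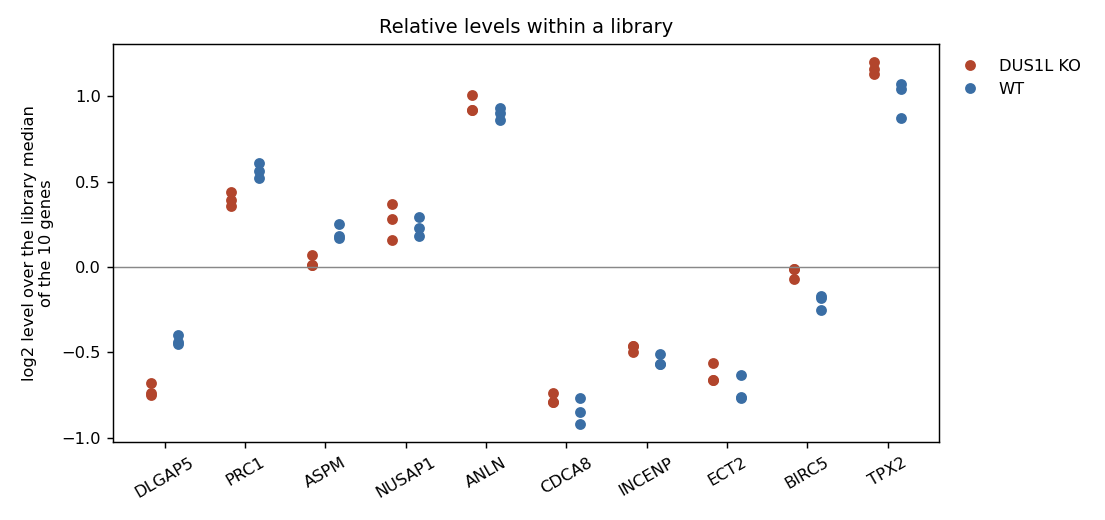
Log2 level of each gene over the median of the 10 in the same library (vertical axis) for the DUS1L knockout (red) and wild-type (blue) libraries, ordered by the shift between genotypes. DLGAP5, PRC1 and ASPM are lower relative to the median in knockout libraries, and BIRC5 and TPX2 are higher.

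Per kilobase of exonic sequence (RPKM, CPM over the exonic length in GENCODE release 44), TPX2 was the most abundant of the 10 in both genotypes, at 50.8 ± 2.0 in knockout and 74.9 ± 7.4 in wild-type libraries. ASPM was the least abundant, at 6.98 ± 0.26 and 12.9 ± 0.17 RPKM. Between them, knockout libraries had the order NUSAP1, ANLN, BIRC5, CDCA8, PRC1, DLGAP5, INCENP and ECT2, in which the ranges of NUSAP1 and ANLN overlapped, as did those of BIRC5 and CDCA8, of CDCA8 and PRC1, and of DLGAP5 and INCENP. In wild-type libraries PRC1 stood at rank 4, at 36.2 ± 1.9 RPKM, above CDCA8 and BIRC5, whose ranges overlapped each other. In knockout libraries PRC1 stood at rank 6, at 19.5 ± 0.34 RPKM. These levels depend on the annotated exonic length, since the isoforms in use were not measured.

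The regulators of this gene program did not share one direction. FOXM1, the forkhead factor that activates G2/M genes, was at 136 ± 2.2 CPM in knockout and 193 ± 17.3 CPM in wild-type libraries (log2 fold change -0.50, SE 0.06, adjusted p = 1.70e-06, edgeR). MYBL2, which encodes B-MYB, was at 195, 177 and 196 CPM in knockout and 166, 202 and 199 CPM in wild-type libraries (log2 fold change 0.00, SE 0.07, adjusted p = 0.986, edgeR), and the libraries of the genotypes overlapped. RBL2, which encodes the DREAM pocket protein p130, was at 32.5 ± 2.0 CPM in knockout and 58.4 ± 2.6 CPM in wild-type libraries (log2 fold change -0.85, SE 0.07). E2F7, an atypical E2F repressor, was at 112 ± 3.7 CPM in knockout and 66.1 ± 2.7 CPM in wild-type libraries (log2 fold change 0.76, SE 0.06), and LIN52, a subunit of the MuvB core, was at 7.37 ± 0.61 and 5.14 ± 0.98 CPM, a call lost without knockout replicate 2 or 3 or wild-type replicate 2 (adjusted p = 0.0853, 0.0597 and 0.136). Of the 18 regulators, 6 were lower, 2 were higher and 10 were not called. The share called was near the 41.2% of all tested genes called in either direction (20.7% lower, 20.5% higher).

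Genes of the anaphase-promoting complex, the ubiquitin ligase that removes many mitotic proteins, were lower or not called. Its activator gene CDC20 and its ubiquitin-conjugating enzyme gene UBE2C fell by 0.73 and 0.82, and the core subunit gene CDC27 fell by 0.40. Of 19 genes, 10 were lower and 9 were not called (median -0.21), against 20.7% of all tested genes called lower. G1/S genes, set beside the mitotic ones, had a median log2 fold change of -0.29. Of these, 11 of 17 were lower, against 20.7% of all tested genes, none was higher and none was lower by more than 1.5-fold. GINS2, MCM3 and TYMS, which serve replication and nucleotide supply, fell by 0.49, 0.44 and 0.39.

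**Figure D5:**
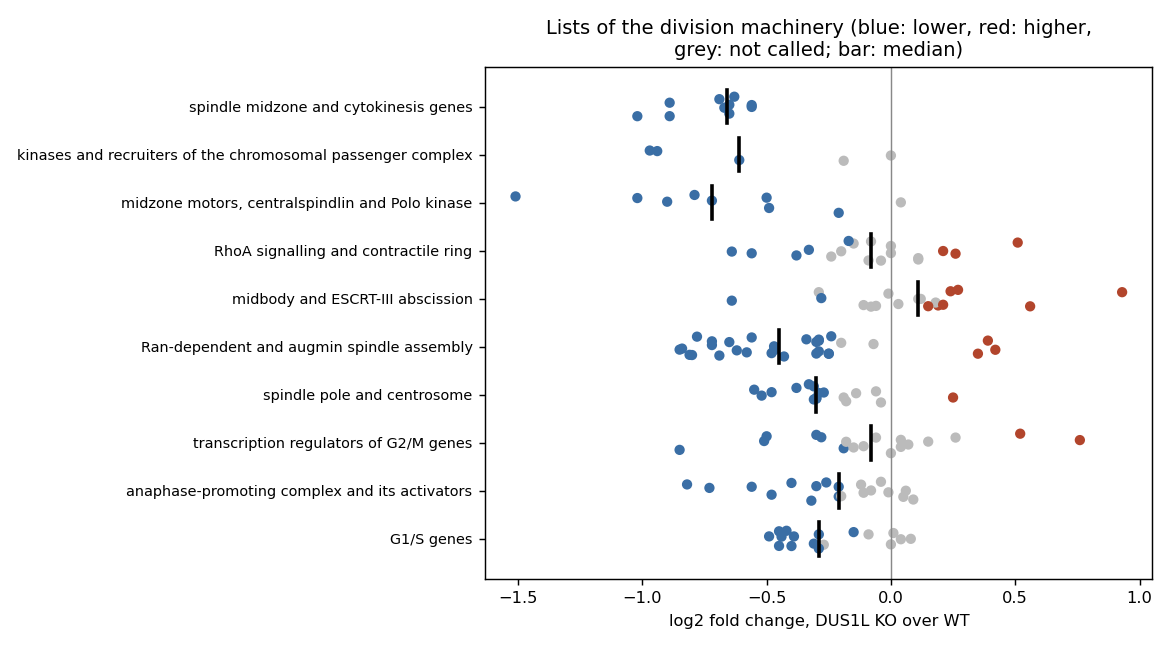
Log2 fold change of DUS1L knockout over wild-type libraries (horizontal axis) for each tested gene of the 10 lists, with a bar at the median of each list. Medians run from -0.72 for the midzone motors to 0.11 for the abscission genes, and the 10 midzone and cytokinesis genes have a median of -0.66.

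Promoter matches were also counted over the 9 lists of related genes, as a description with no test. The CHR hexamer was in 25 of 68 windows (36.8%) of genes called lower, in 1 of 14 (7.14%) of genes called higher and in 4 of 48 (8.33%) of genes not called. The hexamer and the CCAAT pentamer were found together in 18 of the 68 windows of genes called lower and in none of the 14 and 48 others. Of all tested genes with a window, 9.76% had the hexamer and 4.04% had both. The lists mix mitotic genes with others, and a choice of mitotic genes favours these motifs, so the shares depend on the make-up of the lists. KIF4A, KIF23, PLK1, CEP55 and CDC20 carried both, while KIF20A, SGO2, BUB1 and AURKB, which were also lower, had no TTTGAA in the window (these 9 were chosen after their values were seen). Over all tested genes, the hexamer was in 22.3% of the 148 windows of genes lower by more than 1.5-fold and in 9.2% of the 261 windows of genes higher by more than 1.5-fold.

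Outside the 10, the genes whose profile over the 6 libraries lay closest to their mean profile were THBS3, ETV4, TMPO, HMGB2 and STMN1, among 11590 genes with a mean of at least 5 CPM. Likeness was the root mean square difference of log2 CPM centred on each gene's own mean, 0.032 to 0.036 log2 units for these 5 and 0.041 to 0.15 for the 10 genes themselves. STMN1, which encodes the microtubule-destabilizing protein stathmin, was at 184 ± 5.9 CPM in knockout and 315 ± 13 CPM in wild-type libraries. TMPO, a nuclear lamina-associated protein gene, was at 154 ± 1.5 and 249 ± 3.8 CPM, and HMGB2, a chromatin protein gene, at 110.0 ± 2.3 and 182 ± 13 CPM. ETV4, an ETS transcription factor gene, was at 125 ± 1.3 CPM in knockout and 212 ± 7.4 CPM in wild-type libraries, and THBS3, a thrombospondin gene, at 17.4 ± 0.13 and 28.5 ± 1.4 CPM.

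Between 802 and 5281 estimated counts lay behind each value of the 10 genes. Counts were whole in 8 genes and fractional in NUSAP1 and PRC1, each of which lies almost wholly within another annotated gene on the same strand. The gene that shares 29440 bases with PRC1 (ENSG00000284946) was at 9.62, 7.11 and 9.98 CPM in knockout and 19.2, 21.7 and 19.3 CPM in wild-type libraries, and the one that shares 60203 bases with NUSAP1 (ENSG00000285920) was at most 1.69 CPM in any library. How reads were divided between them was not given in the sources used here. NUSAP1 also shares 1599 bases with OIP5-AS1 on the same strand, which was at 66.7, 66.5 and 63.5 CPM in knockout and 56.5, 53.6 and 58.6 CPM in wild-type libraries. On the opposite strand it shares 11798 bases with OIP5, at 9.53 to 10.5 CPM in knockout and 9.58 to 14.7 CPM in wild-type libraries. PRC1 shares 22286 bases with PRC1-AS1 on the opposite strand, at 0.733 to 1.56 CPM in knockout and 0.523 to 1.18 CPM in wild-type libraries. ANLN overlaps 305 bases of MATCAP2 on the opposite strand, which was at 15.4, 18.1 and 15.7 CPM in knockout and 13.2, 10.9 and 12.7 CPM in wild-type libraries, and the strand setting of the counts was not given either, so reads of opposite-strand partners cannot be told apart.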

How the data were processed

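RNA was sequenced from 3 DUS1L knockout and 3 wild-type A375 libraries. What the authors deposited is a gene table of estimated counts, some of them fractional, with no normalization recorded. The submitters' processing notes name GRCh38 (hg38) as the build. For the aligner, the counting tool and the annotation, nothing is given in the sources used here. Of 63086 genes, 62541 matched GENCODE release 44, which gave symbols, positions and exonic lengths.

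Estimated counts were rounded, filtered with filterByExpr (minimum count 10) and scaled by TMM. Genotypes were compared over 16046 genes with edgeR 4.0.16 in R 4.3.3 (robust quasi-likelihood fit, genotype as the only term), two-sided, with Benjamini-Hochberg adjustment over all genes and a threshold of 0.05. glmTreat tested for more than 1.5-fold. SEs were derived from the F statistic. A count of 3 is 0.16 to 0.18 CPM in these libraries, for counting error only. The procedure was tested on simulated counts. No 2 libraries agreed within sampling noise (chi-square per degree of freedom of at least 3.64).

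The members and lists were chosen with earlier results of these data known. Named genes are the 10, DUS1L, AURKB, KIF23, RACGAP1, FOXM1 and MYBL2, in each list the 3 genes with the smallest p and up to 3 called against the direction of its median, and the 5 genes most like the 10. One gene that this rule names is not reported here. HASPIN, SGO1, CLASP1, CLASP2, RHOA, PLK1 and the single cell type markers were named after their values were seen. Alternatives used DESeq2 1.42.0, limma 3.58.1, other scalings and filters, a replicate block, a loess correction for length and GC content, and leaving out each library. A planned search of protein sequences was not run.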

Additional observations from a re-analysis of the deposited data

How the results depend on the processing

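All 10 genes were called lower under each of 14 alternatives, with log2 fold changes from -1.05 to -0.97 for DLGAP5 and from -0.61 to -0.52 for BIRC5. Their number above 1.5-fold was 3 except after correction for length and GC content, which raised it to 5 by adding ANLN and NUSAP1. Over all genes, DESeq2 put 230 genes higher and 110 lower by more than 1.5-fold and limma-voom put 226 and 119, against 371 and 204 with edgeR. The cause was not tested. Same-numbered libraries did not deviate together (correlations -0.03, -0.001 and 0.026), and the replicate block gave 3122 higher and 3119 lower genes, 354 and 183 of them by more than 1.5-fold, with 10 of the 10 genes lower and 3 above 1.5-fold. The balance of calls over all genes, 3288 higher and 3320 lower, depended on the scaling: library size alone gave 3880 higher and 2732 lower genes, and the length and GC correction gave 2997 and 3967. Leaving out 1 library gave 2669 to 3330 higher and 2700 to 3307 lower genes, and 268 to 395 and 144 to 199 by more than 1.5-fold. MYBL2 changed sign without a low-count filter (log2 fold change -0.01) and ranged from -0.08 to 0.05 over the libraries left out. The shift of NUSAP1 against the median of the 10 ranged from -0.01 to 0.1 over the libraries left out. Scaling by library size alone called 4 of the 18 regulators higher in place of 2, and the length and GC correction called 8 contractile ring genes lower in place of 5. KATNA1 was also not called without a filter, with DESeq2 or after the length and GC correction (adjusted p = 0.0684, 0.0629 and 0.0760). The median log2 fold change of all tested genes lay between -0.04 and 0.041 under the alternatives, against -0.004 with edgeR and TMM scaling.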
